A study of Mus musculus with 6 samples.

Results

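The 8 miRNAs described here are the muscle miRNAs mmu-miR-499-5p, both arms of mmu-miR-206, of mmu-miR-133b and of mmu-miR-133a, and mmu-miR-1a-3p, chosen by name. Of these 8, 6 had values among the 1393 annotated miRNAs, and miR-206-5p and miR-133b-5p were not analysed here. Small RNA of the right SN was sequenced in 6 libraries. The 3 libraries of the hα-syn(A53T) + Ang-(1-7) group came from mice given Ang-(1-7) above the SN by osmotic pump at 1.1 nmol in 0.25 μL per hour for 4 weeks, and the 3 libraries of the hα-syn(A53T) group came from mice given aCSF at 0.25 μL per hour for the same time. Mice of both groups carried human α-syn with the A53T mutation. The labels call them an overexpressing strain, whereas the methods of the study describe male C57BL/6J mice that received AAV-hα-syn(A53T) in the right SNpc at 8 weeks of age. Libraries from mice without hα-syn(A53T) were not analysed here, the promoter of the AAV is not given in the sources used here, and no source says how many mice went into a library. The p-values therefore measure the spread between these libraries, which may be technical.

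miR-1, miR-133a, miR-133b, miR-206 and miR-499 are known as myomiRs, miRNAs enriched in striated muscle. There, myogenic factors switch them on, miR-1 and miR-206 promote differentiation of muscle cells, and miR-499 is made together with a slow myosin. miR-206 is typical of skeletal muscle, while miR-1 and miR-133a are also abundant in heart. In the midbrain of mice, miR-133b has been linked to dopaminergic neurons through the transcription factor Pitx3. miR-1 and miR-206 share the seed, the bases at the 5′ end that pair with target mRNAs, and miR-133a and miR-133b differ from each other only at the 3′ end.

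The mature sequences of the miRNAs that carry the comparison are shown because the seed sets which targets a miRNA can pair with. RefSeq (GRCm38.p6) gave a sequence for 5 of the 8 miRNAs, 3 of them with values here. The seed, bases 2 to 8 from the 5′ end, is in capitals, and miR-208b-3p is added because it was the only relative found by its seed for miR-499-5p.
miR-206-3p: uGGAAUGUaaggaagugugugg
miR-133b-3p: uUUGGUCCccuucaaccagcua
miR-499-5p: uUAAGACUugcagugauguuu
miR-208b-3p: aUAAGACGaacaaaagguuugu
Among the 1174 annotated miRNAs with a RefSeq sequence, none shared all 7 seed bases with miR-206-3p, miR-133b-3p or miR-499-5p, and miR-208b-3p shared bases 2 to 7 with miR-499-5p. miR-1a-3p and both arms of miR-133a were not part of that comparison.

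The members come from 3 kinds of locus. In GRCm38, Mir206 lies on chromosome 1 from 20679010 to 20679082 and Mir133b from 20682769 to 20682887, both on the plus strand, with 3686 bases between them. Both lie within the lincRNA gene Gm28653 (20669882 to 20684298, plus strand). Mir133b is exonic in both of its 2 annotated transcripts, whereas Mir206 overlaps an exon in part in 1 of them. The mature miR-206-3p spans 20679055 to 20679076 and the mature miR-133b-3p 20682834 to 20682855. miR-1a and miR-133a are each made from a pair of loci, and 1 pair, Mir1a-1 (180389048 to 180389124) and Mir133a-2 (180398379 to 180398482), lies on the plus strand of chromosome 2, where no host gene was found. The mature miRNA does not show which locus it came from. Mir499 lies on chromosome 2 from 155622880 to 155622958, within an intron of Myh7b (155611212 to 155634307, plus strand), which encodes a myosin heavy chain, and its mature miR-499-5p spans 155622893 to 155622913.

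The libraries held 14796519 to 17088611 reads over the annotated miRNAs, with no gap in depth between the groups. The values are normalized counts, meaning reads scaled by a size factor for each library, and 1 read was worth 0.907 to 1.10 normalized counts. The muscle miRNAs with values took 0.0883% to 0.148% of these reads in the Ang-(1-7) libraries and 0.284% to 0.503% in the hα-syn(A53T) libraries. limma was run on log2(normalized count + 1) between the groups, over the 1065 annotated miRNAs that reached 1 in 3 or more libraries, with the Benjamini-Hochberg adjustment. Because of the added 1, fold changes of scarce miRNAs come out too small.

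Under Ang-(1-7), 4 of the 6 muscle miRNAs fell in the right SN: both measured members of the Mir206 and Mir133b locus (miR-206-3p and miR-133b-3p), and miR-133a-3p together with miR-1a-3p. The remaining pair, miR-499-5p and miR-133a-5p, did not pass. Among all miRNAs tested, 4.04% were lower and 5.54% higher at an adjusted p under 0.05 in limma, 9.58% in either direction. For 5 of the 6 the highest Ang-(1-7) library lay below the lowest hα-syn(A53T) library, as was the case for 14.0% of all miRNAs tested, and 28.2% were apart in either direction. The median log2 fold change of the 6 was -1.52, against -0.04 over all 1065. The members were picked with earlier results of these data known, so these counts describe them and test nothing. The tissue was measured in bulk, so fewer cells that express a miRNA and less of it per cell cannot be told apart.

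**Figure D1:**
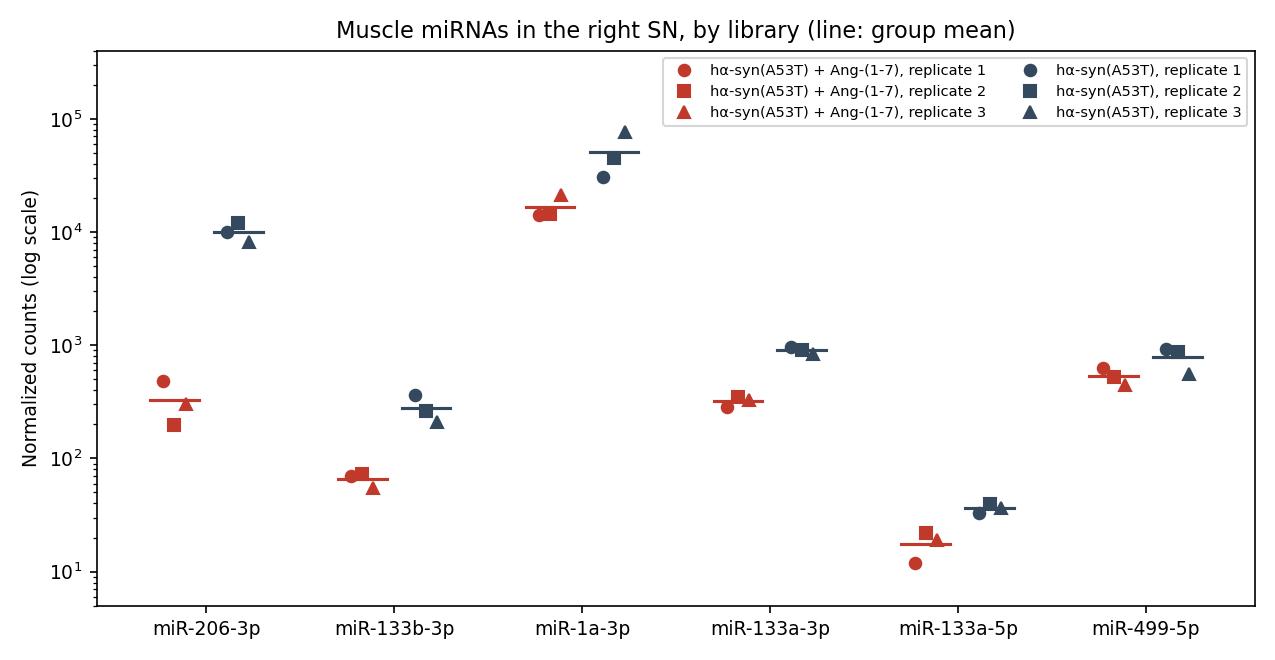
Normalized counts (log scale) of the 6 muscle miRNAs in each library, with the hα-syn(A53T) + Ang-(1-7) libraries in red and the hα-syn(A53T) libraries in dark blue, symbols for the replicate number and a line at the group mean. The gap between the groups was widest for miR-206-3p, whose means were 327 under Ang-(1-7) and 10093 under aCSF, and the groups overlapped for miR-499-5p.

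mmu-miR-206-3p, the skeletal muscle miRNA of the Mir206 and Mir133b locus, fell further than any other muscle miRNA. Under Ang-(1-7) its normalized counts were 481, 196.1 and 303, against 10023, 12103 and 8154 under aCSF. The lowest hα-syn(A53T) library was 16.9 times as high as the highest Ang-(1-7) library. In reads, these values were 482, 178 and 334 against 9777, 13061 and 8059, so counting error was small in both groups. Its mean was 327 ± 144.1 under Ang-(1-7) and 10093 ± 1975 under aCSF (SD, n = 3), a 30.9-fold lower mean. The log2 fold change was -5.02 (standard error, SE, 0.32, 95% interval -5.74 to -4.30, limma adjusted p = 2.45e-05). It was the most negative of all 1065 tested. Among the 1393 annotated miRNAs ordered by mean level, miR-206-3p moved to place 342 under Ang-(1-7), against place 105 under aCSF.

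mmu-miR-133b-3p, encoded in the same lincRNA gene, also fell, but by less. It reached 69.9, 72.7 and 54.4 normalized counts under Ang-(1-7), against 364, 261 and 208.4 under aCSF. All 3 Ang-(1-7) libraries were close together, and the lowest hα-syn(A53T) library was 2.87 times as high as the highest of them. The mean was 65.7 ± 9.85 under Ang-(1-7) and 278 ± 79.1 under aCSF (SD, n = 3). The log2 fold change was -2.04 (SE 0.29, 95% interval -2.69 to -1.39, limma adjusted p = 0.00285). This interval lay entirely above that of miR-206-3p.

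mmu-miR-1a-3p, which pairs with targets through the same seed as miR-206-3p, was the most abundant muscle miRNA in both groups. It reached 14160, 14327 and 21148 normalized counts under Ang-(1-7), against 30733, 45113 and 77154 under aCSF. The hα-syn(A53T) libraries spread widely, and the lowest of them was 1.45 times as high as the highest Ang-(1-7) library. The mean was 16545 ± 3987 under Ang-(1-7) and 51000 ± 23764 under aCSF (SD, n = 3), and the log2 fold change was -1.55 (SE 0.32, limma adjusted p = 0.0197). The call ended without Ang-(1-7) replicate 1 (log2 fold change -1.45, limma adjusted p = 0.0683), Ang-(1-7) replicate 2 (-1.46, adjusted p = 0.0717) or hα-syn(A53T) replicate 2 (-1.58, adjusted p = 0.0605), and over all alternatives its adjusted p from limma ran from 0.00178 to 0.311.

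mmu-miR-133a-3p, a regulator of muscle cell proliferation made from the same transcripts as miR-1a, gave the tightest values of the 6. It reached 285, 349 and 328 normalized counts under Ang-(1-7), against 972, 904 and 831 under aCSF. The groups were clearly apart, with the lowest hα-syn(A53T) library 2.38 times as high as the highest Ang-(1-7) library. The mean was 320 ± 32.9 under Ang-(1-7) and 902 ± 70.6 under aCSF (SD, n = 3), and the log2 fold change was -1.49 (SE 0.22, 95% interval -1.98 to -1.01, limma adjusted p = 0.00285). Its other arm, miR-133a-5p, had few reads, 12, 20 and 21 in the Ang-(1-7) libraries and 32, 43 and 36 in the hα-syn(A53T) libraries. Those reads correspond to 12.0, 22.0 and 19.1 normalized counts under Ang-(1-7) and to 32.8, 39.8 and 36.4 under aCSF, with no overlap between the groups. The log2 fold change of miR-133a-5p was -1.04 (SE 0.34, 95% interval -1.81 to -0.27), which did not pass the adjustment (limma adjusted p = 0.103).

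mmu-miR-499-5p, made within the slow myosin gene Myh7b, overlapped between the groups. It reached 631, 524 and 442 normalized counts under Ang-(1-7), against 921, 872 and 559 under aCSF. hα-syn(A53T) replicate 3 lay below Ang-(1-7) replicate 1, and the other 2 hα-syn(A53T) libraries lay above all Ang-(1-7) libraries. The mean was 533 ± 94.98 under Ang-(1-7) and 784 ± 197 under aCSF (SD, n = 3), with a log2 fold change of -0.54 (SE 0.27, limma adjusted p = 0.258). Its 95% interval of -1.14 to 0.06 includes 0 as well as the value of miR-133a-5p, so these data do not show whether it differed.

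**Figure D2:**
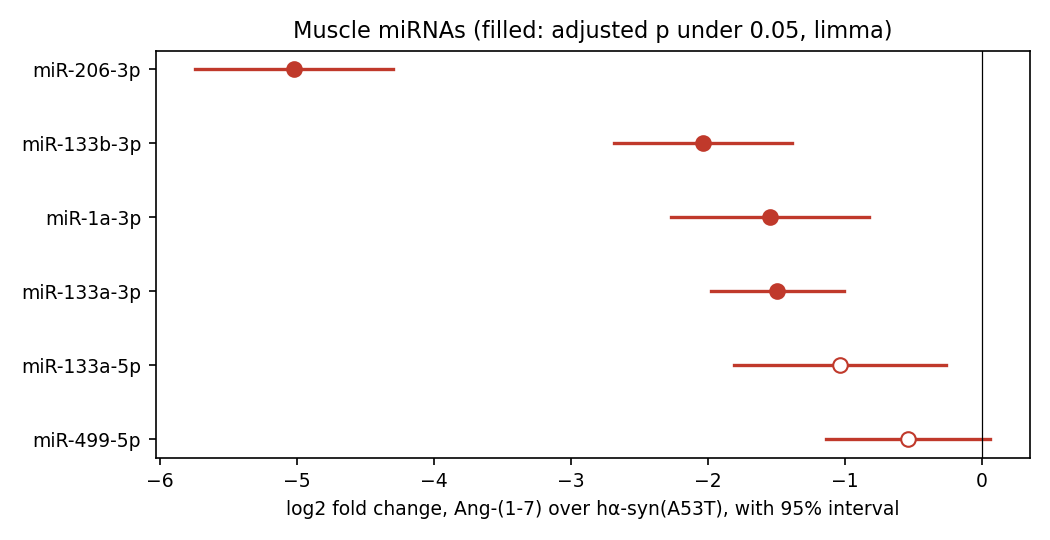
Log2 fold change of each muscle miRNA, Ang-(1-7) over hα-syn(A53T), with its 95% interval from limma, filled where the adjusted p was under 0.05. The interval of miR-206-3p, -5.74 to -4.30, overlaps none of the others, and only that of miR-499-5p includes 0.

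**Figure D3:**
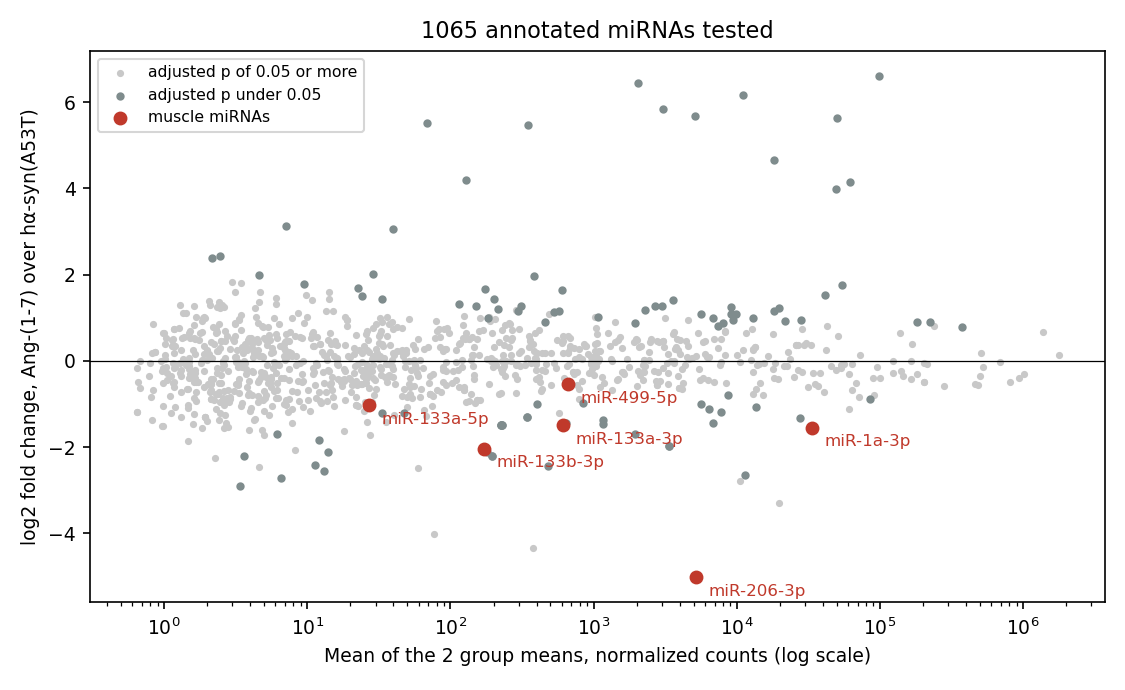
Log2 fold change of all 1065 annotated miRNAs tested, Ang-(1-7) over hα-syn(A53T), by their mean level in normalized counts (log scale), with the 6 muscle miRNAs in red. miR-206-3p, at -5.02, is the lowest point of the plot, and the other 5 lie between -2.04 and -0.54.

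The thresholds of the study were an absolute log2 fold change of at least 1 and p under 0.0001, with DESeq2. Whether that p was adjusted is not stated. With these thresholds on the unadjusted p of limma, 3 of the 6 muscle miRNAs were lower, miR-206-3p, miR-133b-3p and miR-133a-3p. These are not the study's own calls. Over all miRNAs tested 0.751% were lower by these thresholds. miR-133a-3p and miR-133b-3p are nearly identical, and a read that ends short of the 3′ end fits both. How such reads were assigned is not given in the sources used here, so the split between them is uncertain. With their values summed into 1 row, a setting chosen after seeing the data, the log2 fold change was -1.61 (SE 0.22, limma adjusted p = 0.00196).

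To set the loci against each other, levels of different miRNAs were compared within each library, which removes the scaling of the library. 4 such ratios were tested between the groups with a two-sided exact permutation test, whose smallest possible p with 3 against 3 libraries is 0.1, so none can reach 0.05. The ratios share miRNAs and are not independent of each other. miR-1a-3p was 29.4, 73.0 and 69.8 times as abundant as miR-206-3p in the Ang-(1-7) libraries, against 3.07, 3.73 and 9.46 times in the hα-syn(A53T) libraries. The log2 ratio of miR-206-3p to miR-1a-3p differed by -3.47 (pairs of libraries between -1.63 and -4.57, exact permutation p = 0.1). Of the pool that shares this seed, miR-206-3p plus miR-1a-3p, miR-206-3p made up 2.02% ± 1.10 under Ang-(1-7) and 18.4% ± 7.88 under aCSF (SD, n = 3). The pool itself averaged 16872 ± 3966 normalized counts under Ang-(1-7) and 61093 ± 22528 under aCSF (SD, n = 3), a 3.62-fold lower mean.

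miR-206-3p was also lower relative to miR-499-5p in each Ang-(1-7) library. It stood at 0.763, 0.374 and 0.686 times the level of miR-499-5p under Ang-(1-7) and 10.9, 13.9 and 14.6 times under aCSF, so their order was turned round. The difference between the groups was -4.48 on the log2 scale (pairs between -3.83 and -5.28, exact permutation p = 0.1). miR-133a-3p, from the other loci, stood at 0.451, 0.666 and 0.741 times the level of miR-499-5p under Ang-(1-7) and 1.06, 1.04 and 1.49 times under aCSF, again with no overlap. For miR-1a-3p against miR-499-5p the groups overlapped, at 22.4, 27.3 and 47.9 times under Ang-(1-7) and 33.4, 51.7 and 138.1 times under aCSF.

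Between the near-identical miR-133b-3p and miR-133a-3p the shift was small. miR-133a-3p was 4.07, 4.80 and 6.02 times as abundant as miR-133b-3p under Ang-(1-7) and 2.67, 3.46 and 3.99 times under aCSF. The groups barely separated, with a difference of -0.54 on the log2 scale and pairs between -0.02 and -1.15 (exact permutation p = 0.1). miR-133b-3p made up 17.1% ± 2.74 of both together under Ang-(1-7) and 23.2% ± 3.66 under aCSF (SD, n = 3).

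Within the Mir206 and Mir133b locus the members moved by unequal amounts. miR-206-3p was 6.89, 2.70 and 5.57 times as abundant as miR-133b-3p under Ang-(1-7), against 27.5, 46.3 and 39.1 times under aCSF. The difference was -2.98 on the log2 scale (pairs between -2.01 and -4.11, exact permutation p = 0.1). In the miR-1a and miR-133a loci the differences were smaller. miR-1a-3p was 49.7, 41.0 and 64.6 times as abundant as miR-133a-3p under Ang-(1-7) and 31.6, 49.9 and 92.9 times under aCSF, with overlapping groups and a difference of -0.05, for which no test was run. miR-133a-3p was 23.8, 15.9 and 17.2 times as abundant as its scarce other arm miR-133a-5p under Ang-(1-7) and 29.6, 22.7 and 22.8 times under aCSF, so these ratios overlapped. On the scale of log2(normalized count + 1) the difference was -0.46 and the groups were just apart (pairs between -0.01 and -0.92), again with no test. Summed over their measured members, the Mir206 and Mir133b locus gave 393 ± 144.5 normalized counts under Ang-(1-7) and 10371 ± 2001 under aCSF, the miR-1a and miR-133a loci 16883 ± 3996 under Ang-(1-7) and 51939 ± 23696 under aCSF, and the miR-499 locus 533 ± 94.98 under Ang-(1-7) and 784 ± 197 under aCSF (SD, n = 3). Under Ang-(1-7) the mean of the sum was 26.4-fold lower for the Mir206 and Mir133b locus, mostly miR-206-3p, 3.08-fold lower for the miR-1a and miR-133a loci, mostly miR-1a-3p, and 1.47-fold lower for miR-499.

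**Figure D4:**
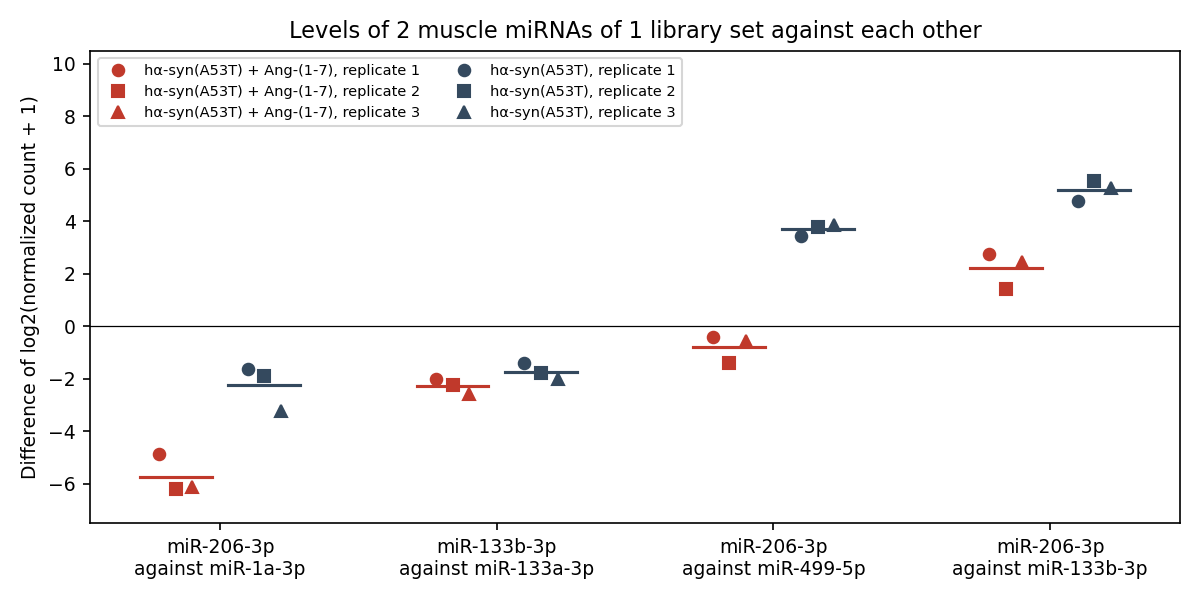
Difference of log2(normalized count + 1) between the muscle miRNAs of each pair, in each library, with the hα-syn(A53T) + Ang-(1-7) libraries in red, the hα-syn(A53T) libraries in dark blue and a line at the group mean. The group means differ by -3.47, -0.54, -4.48 and -2.98 from left to right, and for miR-133b-3p against miR-133a-3p the closest libraries of the groups nearly touch, -0.02 apart.

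Within a group, some members followed each other from library to library and others did not. hα-syn(A53T) replicate 3, which had the most miR-1a-3p, had the least miR-206-3p, miR-133b-3p, miR-133a-3p and miR-499-5p of its group. Among the Ang-(1-7) libraries, replicate 3 again had the most miR-1a-3p and the least miR-133b-3p and miR-499-5p. Over the 6 libraries, the Pearson correlation of miR-206-3p was 0.96 with miR-133b-3p, 0.96 with miR-133a-3p, 0.84 with miR-1a-3p and 0.76 with miR-499-5p (n = 6 libraries, whose values for all miRNAs share a size factor). With the group means removed, the same correlations were 0.10, -0.58, -0.24 and 0.55 in that order. Likewise with the group means removed, miR-1a-3p had a correlation of -0.98 with miR-133b-3p and of -0.92 with miR-499-5p over the same 6 libraries. It was 0.84 between miR-133b-3p and miR-499-5p, 0.67 between the arms of miR-133a and 0.49 between miR-133b-3p and miR-133a-3p. Of all pairs of members, -0.98 and -0.92 were the lowest values and 0.84 the highest. With 3 libraries per group such correlations are imprecise, and they were not tested.

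Of 16 other miRNAs listed as enriched in muscle, 10 had values and 9 were tested. Among these 9, 4 were lower, all of them arms of miR-486, and 5 did not pass. The median log2 fold change of the 9 was -0.93, which counts identical rows of miR-486a and miR-486b separately. It is the value of miR-1a-1-5p, which was at trace level (mean 0.67 normalized counts under Ang-(1-7) and 2.67 under aCSF, limma adjusted p = 0.473). Over all miRNAs tested 4.04% were lower. miR-486a and miR-486b, known from muscle and from red blood cells, have identical values arm by arm, so the 4 arms are 2 separate measurements. Their 5p arms reached 1654, 1237 and 1134 normalized counts under Ang-(1-7), against 6717, 6051 and 3431 under aCSF, with no overlap and a log2 fold change of -1.97 (SE 0.29, limma adjusted p = 0.00285). The call of the 3p arms (log2 fold change -2.20, limma adjusted p = 0.0289) ended without Ang-(1-7) replicate 2 (-1.66, adjusted p = 0.0677), hα-syn(A53T) replicate 1 (-2.05, adjusted p = 0.0924) or hα-syn(A53T) replicate 2 (-1.95, adjusted p = 0.104), and with the level of miR-10, a miRNA of the Hox clusters, in the model (-2.01, adjusted p = 0.279). miR-208b-3p, a cardiac miRNA with 6 seed bases in common with miR-499-5p, was at trace level, with 0.999, 1.10 and 2.72 normalized counts under Ang-(1-7) and 3.08, 1.85 and 3.04 under aCSF. miR-1b-3p averaged 7.35 ± 2.36 under Ang-(1-7) and 5.56 ± 1.32 under aCSF (SD, n = 3). miR-378a-3p, expressed widely in oxidative tissue, averaged 29453 ± 5770 under Ang-(1-7) and 44671 ± 10590 under aCSF (SD, n = 3), with a log2 fold change of -0.59 that did not pass (limma adjusted p = 0.165).

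Markers of other cell types were read beside these results, and their part in them was not tested. The miRNAs of smooth muscle and pericytes, among them miR-143-3p, summed to 184604 to 263629 normalized counts under Ang-(1-7) and 187970 to 278952 under aCSF, and 0 of 5 passed in limma (0 at an unadjusted p under 0.05). Those of endothelium (0 of 2), of leukocytes and microglia (0 of 6) and of red blood cells (0 of 3) did not pass in limma either (0 at an unadjusted p under 0.05 in each). Over all miRNAs tested 9.58% passed in either direction, so lists this short do not show whether these cell types changed. The red blood cell miRNAs, among them miR-451a, summed to 154 to 498 normalized counts under Ang-(1-7) and 186 to 189 under aCSF. Neuronal miRNAs were abundant throughout, with sums of 3739893 to 4902938 under Ang-(1-7) and 3267881 to 3561491 under aCSF. Of 10 of them 5 were higher (miR-7a-5p, miR-137-3p, miR-138-5p, miR-153-3p and miR-218-5p) and 1, miR-124-3p, was lower (8 at an unadjusted p under 0.05). 2 of 6 miRNAs of the choroid plexus and ependyma were lower, miR-204-5p and miR-211-5p (2 at an unadjusted p under 0.05). The other 4 had log2 fold changes of 0.06 to 0.55, and the list median was 0.08. The sums were 36619 to 38510 under Ang-(1-7) and 47405 to 67239 under aCSF. In them, miR-204-5p averaged 15897 under Ang-(1-7) and 39775 under aCSF. Of 6 miRNAs of oligodendrocytes 1, miR-338-5p, was lower (4 at an unadjusted p under 0.05), and the list median was -0.73. Their sums were 35887 to 66082 under Ang-(1-7) and 60730 to 168391 under aCSF. Of 7 miRNAs of Hox clusters, expressed in hindbrain and spinal cord, 1, miR-196a-5p, was lower (6 at an unadjusted p under 0.05). miR-196a-5p was near the floor, with 0, 0 and 0 normalized counts under Ang-(1-7) and 4.10, 9.27 and 7.08 under aCSF. Its log2 fold change of -2.91 was also the list median. Sums over this list ran from 1380 to 32139 under Ang-(1-7) and from 13060 to 76185 under aCSF. With the miR-10 level (miR-10b-5p and miR-10a-5p of that list) in the model, miR-206-3p had a log2 fold change of -4.93 (SE 0.45, limma adjusted p = 5.52e-04), miR-133b-3p one of -2.44 (adjusted p = 0.00603) and miR-133a-3p one of -1.53 (adjusted p = 0.0277). miR-1a-3p then stood at -0.97 (SE 0.37, limma adjusted p = 0.311) and no longer passed. miR-10b-5p and miR-10a-5p themselves had log2 fold changes of -3.31 and -2.78 (limma adjusted p = 0.132 and 0.0850). The groups overlapped in the miR-10 level only through Ang-(1-7) replicate 3, which lay above hα-syn(A53T) replicate 1 (miR-10b-5p at 21338 and 6887 normalized counts). With 6 libraries, this model therefore separates the miR-10 level from Ang-(1-7) only poorly, whether a call was kept or lost.

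The miRNAs whose levels followed miR-206-3p most closely were looked up among the 442 others tested with a mean of at least 100 normalized counts, by the Pearson correlation of their log2 values over the 6 libraries. The 5 closest were miR-192-5p (0.98), miR-486a-5p and miR-486b-5p (0.96 each), miR-195a-5p (0.96) and miR-28a-3p (0.96), and all of them were lower after Ang-(1-7). miR-192-5p reached 9021, 8379 and 8907 normalized counts under Ang-(1-7), against 19237, 20862 and 15849 under aCSF. Its log2 fold change of -1.08 (SE 0.19, limma adjusted p = 0.00868) was far smaller in size than that of miR-206-3p, and its call ended without hα-syn(A53T) replicate 1 (-1.05, adjusted p = 0.0642) or hα-syn(A53T) replicate 2 (-0.99, adjusted p = 0.0833), and with the miR-10 level in the model (-1.06, adjusted p = 0.0932). miR-195a-5p reached 2427, 2934 and 4281 normalized counts under Ang-(1-7), against 18019, 22977 and 18409 under aCSF, a log2 fold change of -2.65 (SE 0.24, limma adjusted p = 1.13e-04). miR-28a-3p averaged 270 normalized counts under Ang-(1-7) and 541 under aCSF (limma adjusted p = 0.0289), and that call ended without any library but Ang-(1-7) replicate 3, with log2 fold changes of -1.09 to -0.90 and adjusted p = 0.0523 to 0.145. It also ended with the miR-10 level in the model (-0.79, limma adjusted p = 0.302). These correlations are over the libraries of both groups and so include the difference between them. A miRNA picked this way was bound to be lower under Ang-(1-7), so its direction and p-value are no separate result.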

How the data were processed

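Small RNA of the right SN was measured in 6 libraries, 3 per group, grouped by the sample titles. The authors sequenced on a NovaSeq. The submitters' notes name Bowtie 1.2.3, mm9 and DESeq2 1.10.1, the last for normalization. The sources used here give neither the trimming, the counting nor the miRBase release. The deposited signal is each library's reads over its size factor, and within the annotated miRNAs 100% were whole multiples of 1 read (tolerance 1e-06). Columns with the authors' fold changes and p-values, their means and the 1231 predicted loci were not used.

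The values are not raw counts, so limma 3.58.1 (R 4.3.3) with a trend was run on log2(value + 1) over all miRNAs with at least 1 in at least 3 libraries. It was also run on simulated data with the same spread for all miRNAs, which does not show how it behaves on the unequal spreads here. Ratios were tested by exact permutation (SciPy 1.17.1). The members, lists and alternatives were chosen with earlier results of these data known. Named were the 8 members, miRNAs on the muscle list that passed or share seed bases, and the 5 closest to miR-206-3p. miR-1a-1-5p, miR-1b-3p, miR-378a-3p, miR-204-5p, miR-211-5p, miR-143-3p and miR-451a, and the members of marker lists that passed were singled out after their values were seen. Alternatives were other pseudocounts, filters, scalings and limma versions, the replicate block, a miR-10 covariate and each library left out. Positions are from GENCODE vM21 (GRCm38), which is another build than the notes name, and serve as annotation only.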

Additional observations from a re-analysis of the deposited data

How the results depend on the processing

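With all libraries, 102 miRNAs passed in limma, 59 higher and 43 lower. This number was 22 with the miR-10 level in the model, which separates it only poorly from Ang-(1-7). It was 24 at the thresholds of the study, which are stricter. The number of calls ran from 27 to 111 with a library left out, 46 when Ang-(1-7) replicate 1 was dropped, 53 for Ang-(1-7) replicate 2, and 33 and 27 when replicates 1 and 2 of hα-syn(A53T) were dropped in turn. Scaled to the upper quartile, the median of all miRNAs was -0.15 in place of -0.04, and 44 were higher and 50 lower. With the replicate number as a block 112 passed and no call of a muscle miRNA changed. Same-numbered libraries had correlations of 0.12, -0.09 and 0.18 between their deviations from the group means, not every library correlated best with its own number, and the deposited summary numbers the hα-syn(A53T) libraries otherwise, so the numbers were not taken as pairs. miR-206-3p, miR-133b-3p and miR-133a-3p kept their direction and passed under every alternative that fitted them (log2 fold changes of -5.35 to -4.70, -2.44 to -1.82 and -1.63 to -1.41), miR-133a-5p and miR-499-5p passed under none, and the 4 ratios kept their direction, with group differences of -3.97 to -3.16 for miR-206-3p against miR-1a-3p, -0.68 to -0.39 for miR-133b-3p against miR-133a-3p, -4.68 to -4.17 for miR-206-3p against miR-499-5p and -3.26 to -2.59 for miR-206-3p against miR-133b-3p. limma-voom on the reads worked out for the annotated miRNAs also gave 102 calls. The fits planned with TMM and DESeq2 were not run, because the columns, which hold annotated miRNAs and predicted loci with separate size factors, were taken as normalized values. Depth limits miR-133a-5p, miR-208b-3p, miR-1a-1-5p and miR-196a-5p, which had few reads.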
